A study of Gossypium hirsutum with 3 samples.

Results

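The 3 cotton contigs described here have auxin proteins as their best database matches and were compared between fiber initials and elongating fiber of Gossypium hirsutum. Contig3986 matched an auxin-binding protein of peach, Contig9297 an auxin-induced protein of Arabidopsis, and Contig17085 the Arabidopsis protein IAA7. They are 3 of the 11143 genes on a custom 2-colour array, and all of their spots were used, 4 probes with 1 spot each for Contig3986 and for Contig9297, and 1 probe printed in 3 spots for Contig17085. The 3 contigs were chosen by their measured ratio of 10 dpa to 1 dpa fiber (dpa, days post anthesis) and by these descriptions. Their ratios and levels are therefore given as a description, and no test was run on them. Each of 3 arrays carried cDNA of 1 dpa fiber in one dye and of 10 dpa fiber in the other, with the dyes exchanged on replicate 2. Both stages came from field-grown plants, and the methods name the cultivars DES119 and ST4793R without saying which array held which. The 1 dpa fibers were shaken from frozen ovules of many bolls with glass beads and the 10 dpa fibers were dissected from the ovule, and stage and way of harvest cannot be told apart. The labels call the samples total RNA, and the methods describe polyribosomal RNA, with pooling of bolls stated for 1 dpa fiber only. Going by the codes in the scanner files, each stage was represented by 2 RNAs, of which the 1 dpa RNA was the same on replicates 1 and 2 and the 10 dpa RNA the same on replicates 1 and 3. The methods instead describe 3 biological replications harvested on different days. Which is right was not settled here, so the spread between arrays, which the SDs and p-values measure, may be partly technical. The replicate numbers have no order.

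Auxin is a plant hormone that promotes cell division and cell enlargement, and together with gibberellic acid it brings cultured cotton ovules to form fiber. Inside the nucleus, auxin binds a receptor complex that marks Aux/IAA proteins for destruction. Aux/IAA proteins are short-lived repressors that hold back the auxin response factors, the DNA-binding proteins of the pathway, and IAA7 is one of them in Arabidopsis. Many Aux/IAA genes are themselves switched on by auxin. The name auxin-binding protein covers more than one protein family, among them ABP1 of the endoplasmic reticulum and germin-like proteins of the peach cell wall, and the description of Contig3986 does not say which is meant. The description of Contig9297 names no protein family.

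The median intensity of the 42034 gene spots lay between 222 and 362 over the arrays and dyes. The signal that 95% of the 314 negative control spots did not exceed was 71.2 to 187. All 11 spots of the contigs were above that limit in 10 dpa fiber on every array. In 1 dpa fiber the spots of Contig3986 and Contig17085 also passed on every array, and for Contig9297 3 of 4 spots passed on replicates 1 and 3 and 4 of 4 on replicate 2. Over all genes, which are not independent replicates, log2 ratios correlated with r = 0.839 between replicates 2 and 3, against 0.575 and 0.601 for the pairs with replicate 1. Replicates 2 and 3 are the pair whose codes share no RNA. The 4 genes taken as fiber markers (GhRDL, GhSCP, GhACY and GhFDH) had a spot above the negative controls in both stages on all arrays, with mean log2 ratios of 10 dpa over 1 dpa fiber from -0.85 to 0.82. By the limma test described below, 2 of these 4 rose and 1 fell, where 8.03% of all genes rose. All 5 core histone genes taken as markers of dividing ovule cells had a spot above the negative controls as well. Which cells their RNA came from was not tested. The histone ratios ran from -1.15 to -0.46, and 2 of the 5 fell by the limma test described below, by which 5.61% of all genes fell. Their part in the ratios of the auxin genes was not tested. In RNA of whole fiber samples, fewer cells of a type and less RNA per cell cannot be told apart.

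The auxin-binding protein match, Contig3986, was at a higher level in 10 dpa fiber on every array, by 6.02-fold on average. On the normalized log2 intensity scale, its 1 dpa level was 10.57, 10.48 and 9.58 on replicates 1 to 3. In 10 dpa fiber it was 13.11, 12.93 and 12.37 on the same arrays. Replicate 3 was the lowest in both stages, and the lowest 10 dpa level stood 1.79 above the highest 1 dpa level. The log2 ratios were 2.54, 2.44 and 2.79 on replicates 1 to 3, a mean of 2.59 ± 0.18 (SD, n = 3 arrays). After loess normalization 62.8% of all genes had a larger SD over the arrays. In order of mean ratio it was number 22 of 11143 genes.

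The match to an auxin-induced protein, Contig9297, had the highest ratio of the 3 contigs. Its normalized log2 level was 8.33, 8.48 and 7.76 in 1 dpa fiber and 10.90, 11.51 and 10.79 in 10 dpa fiber on replicates 1 to 3. The stages did not overlap, and the lowest 10 dpa level was 2.31 above the highest 1 dpa level. As log2 ratios the arrays gave 2.57, 3.02 and 3.04. The mean was 2.88 ± 0.27 (SD, n = 3 arrays), or 7.34-fold, and the contig was number 9 of 11143 genes by mean ratio. Of all genes, 41.7% had a larger SD over the arrays.

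The IAA7 match, Contig17085, had a smaller ratio that differed more from array to array. In 1 dpa fiber its normalized log2 level was 10.24, 9.92 and 9.43 on replicates 1 to 3, and in 10 dpa fiber 11.86, 10.61 and 10.93. The lowest 10 dpa level, on replicate 2, was 0.36 above the highest 1 dpa level, on replicate 1. The log2 ratios were 1.61, 0.69 and 1.50 in the same order, so that the dye-swapped array showed 1.61-fold where the others showed 3.06-fold and 2.82-fold. The mean was 1.27 ± 0.50 (SD, n = 3 arrays), or 2.41-fold, number 249 by mean ratio, and 10.4% of all genes had a larger SD. The log2 ratio of replicate 2 minus the mean of the other arrays was -0.86, where the median of that difference over all genes was -0.02. A dye term fitted to its ratios was 0.43 on the log2 scale, and 1.79% of genes had a larger one in either direction. With a single dye-swapped array, this term restates the difference of -0.86 and is not a second result. For Contig3986 the dye term was 0.11 and for Contig9297 -0.11, both at the median size of 0.11 over all genes. Replicate 2 carried the exchanged dyes and, by the codes, a 10 dpa RNA of its own, so dye and RNA cannot be told apart for Contig17085.

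**Figure D1:**
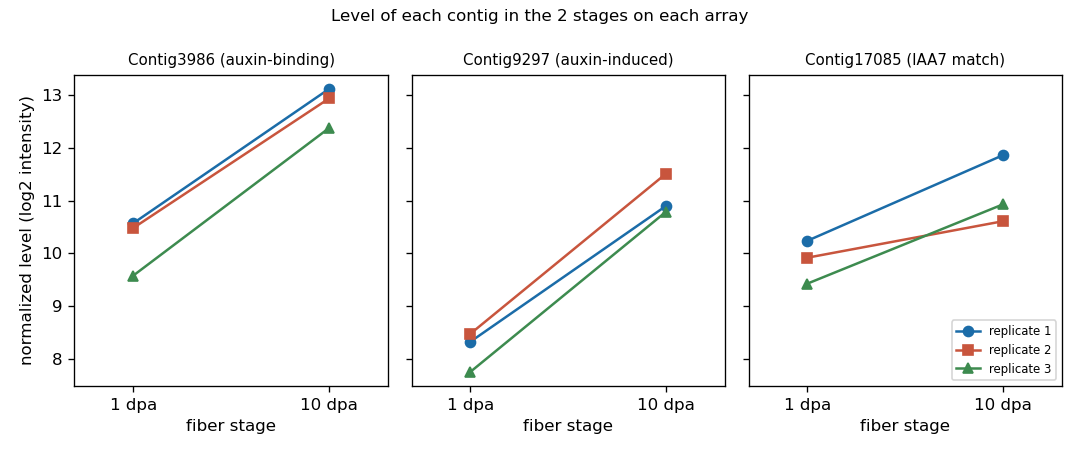
Normalized level (log2 intensity, vertical axis) of each contig in 1 dpa and 10 dpa fiber (horizontal axis), with a line for each array. Every line rises from 1 dpa to 10 dpa, and for Contig17085 the line of replicate 2 rises least, from 9.92 to 10.61.

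All 3 contigs had log2 ratios above 0 on every array, which was so for 22.4% of the genes on the array. In all 3, every 10 dpa level was above every 1 dpa level, as in 12.2% of genes. Contig3986 and Contig9297 were at least 2-fold higher on each array, as were 2.19% of genes, and Contig17085 was not, because of replicate 2. The contigs were chosen on this contrast, so nothing is read from these counts.

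The probes of Contig3986 showed the same direction but not the same size of change. After subtraction of the local background, its probe 4 had intensities of 5880 in 1 dpa and 64121 in 10 dpa fiber on replicate 1, of 4539 and 26027 on replicate 2, and of 1723 and 21715 on replicate 3. The 10 dpa signal of this probe on replicate 1 was at 98.5% of the highest signal of any gene spot on that array, and whether the scanner limited it was not tested. On replicates 2 and 3 the brightest spot of the contigs was at 40% and 33.4% of the highest signal. Over the arrays, the mean log2 ratios of the 4 probes ran from 2.31 for probe 1 to 2.90 for probe 4. Probe 3 was the steadiest, at 2.60, 2.51 and 2.39 on replicates 1 to 3, and probe 1 ranged from 1.75 on replicate 2 to 2.93 on replicate 1. The range of 0.59 between probe means was exceeded by 25.5% of the 8604 genes with 4 probes, whose median range was 0.38.

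Contig9297 differed more between its probes. Probe 1 had the lowest mean log2 ratio, 2.18, and probe 3 the highest, 3.45. That range of 1.27 was exceeded by 4.02% of genes with 4 probes. Probe 3 was read at intensities of 318 in 1 dpa and 4876 in 10 dpa fiber on replicate 1, of 644 and 4325 on replicate 2, and of 150 and 2530 on replicate 3. Those readings are ratios of 15.3, 6.72 and 16.8, and after normalization the log2 ratios were 3.58, 3.16 and 3.60. Probe 4 was less even after normalization, at log2 ratios of 1.86, 3.63 and 4.19. Its background-subtracted ratios were 6.89, 8.62 and 24.7. On replicates 1 to 3 it read 3427, 1359 and 502 in 1 dpa fiber, and 23619, 11720 and 12414 in 10 dpa fiber. The SD of its log2 ratios over the arrays was 1.22, against 0.27 for the mean of the 4 probes. Probe 2 was the dimmest, with 1 dpa intensities of 117, 103 and 33.7 on replicates 1 to 3, and on replicate 3 its green signal, which held 1 dpa RNA, was marked as not well above background. Without probe 2 the log2 ratio of the contig was 2.95, an alternative added after the values were seen.

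Contig17085 rests on a single probe, so no other probe of it can be compared. Its 3 spots read 1152, 1200 and 1788 in 1 dpa fiber and 5673, 5883 and 8122 in 10 dpa fiber on replicate 1. On replicate 2 they read 1129, 1097 and 1024 in 1 dpa and 1341, 1323 and 1195 in 10 dpa fiber. On replicate 3 the readings were 483, 474 and 419 against 1712, 1676 and 1470. Spots of an array were nearly alike in ratio, since their log2 ratios differed by at most 0.24 within an array, while the arrays differed by up to 0.92. Printing the probe in 3 spots thus lowers the error within an array but not the spread between arrays.

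**Figure D2:**
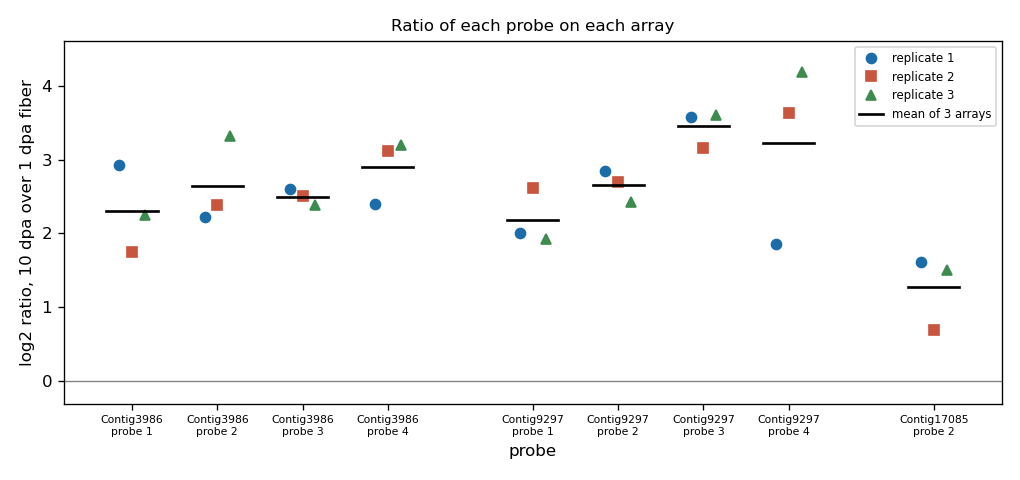
Log2 ratio of 10 dpa over 1 dpa fiber (vertical axis) for each of the 9 probes (horizontal axis), with a marker for each array and a black line at the mean of the 3 arrays. All 27 points lie above 0, from 0.69 for Contig17085 on replicate 2 to 4.19 for probe 4 of Contig9297 on replicate 3.

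How bright spots were normalized changed the size of the ratios, replicate by replicate. Loess normalization, which takes out a dye difference that depends on brightness, moved Contig3986 most on replicate 1. There the background-subtracted intensities of its 4 probes gave ratios of 9.27 to 10.9, and the normalized ratio was 5.80-fold. With the median of each array set to 0 in place of loess, its log2 ratios were 3.21, 2.14 and 3.02 on replicates 1 to 3, its mean was 2.79 in place of 2.59, and its SD was 0.57 in place of 0.18. For Contig17085 the same change gave 2.17, 0.45 and 1.68, a mean of 1.43 ± 0.89 (SD, n = 3 arrays). Contig9297 had 2.91, 2.80 and 3.16, so its arrays drew closer, with an SD of 0.18. Scaling the arrays to the same spread of log ratios put the arrays of all 3 contigs further apart, at 1.47 to 4.03 for Contig3986, 1.48 to 4.38 for Contig9297 and 0.83 to 2.16 for Contig17085.

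**Figure D3:**
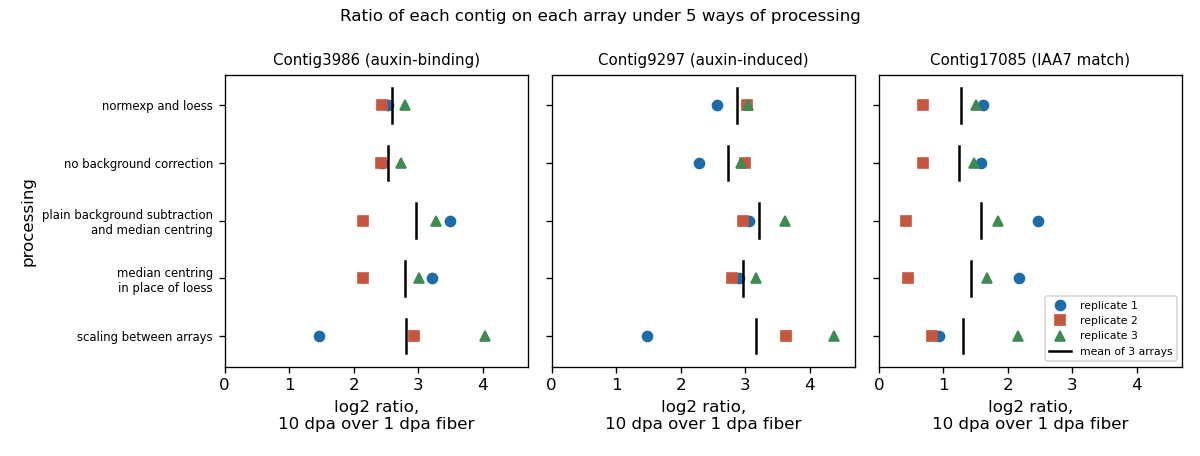
Log2 ratio of 10 dpa over 1 dpa fiber (horizontal axis) of each contig under 5 ways of processing (vertical axis), with a marker for each array and a black line at the mean. All points stay above 0, and replicate 2 of Contig17085 lies lowest of its arrays in each row, from 0.42 with plain background subtraction and median centring to 0.83 with scaling.

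The other genes described with words for auxin moved both ways. The study's additional file describes 16 more genes with words for auxin, Aux/IAA or GH3. The list goes by these words and not by a known place in the auxin pathway. It holds 2 genes described as auxin-independent growth promoters, which both rose, and a weak GH3 match, which fell. Between 10 dpa and 1 dpa fiber 7 of them rose, 5 fell and 4 did not pass an adjusted p of 0.05 (limma with Benjamini-Hochberg adjustment over all genes, n = 3 arrays), where 8.03% of all genes rose and 5.61% fell. Their median log2 ratio was 0.37, against -0.04 over all genes. The file was drawn up by the study from these samples and lists 11 of the 16 for the comparison of the fiber stages. The share of calls among the 16 is therefore not independent evidence, and neither are the adjusted p-values below for those 11. Those 11 are all but the auxin response factors and Contig5129, Contig15281 and Contig4487 of the Aux/IAA family. At least 1 spot of each of the 16 genes was above the negative controls in both stages on all arrays.

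Among the repressors of the Aux/IAA family, to which IAA7 belongs, the 4 other genes did not move together. Contig15331 fell 4.29-fold, with log2 ratios of -1.78, -2.32 and -2.20 on replicates 1 to 3 and a mean of -2.10 ± 0.28 (SD over 3 arrays; limma, adjusted p = 0.0011). Contig5129 rose 1.95-fold, with ratios of 1.10, 0.88 and 0.91 (limma, adjusted p = 0.00576). Its SD over the arrays was 0.12. Contig15281 had a log2 ratio of 0.38 ± 0.14 and Contig4487 one of -0.33 ± 0.70, and neither passed the test (limma, adjusted p = 0.116 and 0.572). Like the IAA7 match, Contig4487 is read by 1 probe in 3 spots. All 4 of these genes had their lowest ratio on replicate 2, where Contig15331 had -2.32, Contig5129 0.88, Contig15281 0.23 and Contig4487 -0.98. For Contig15331 and Contig5129 the next lowest array was close, at -2.20 and 0.91 on replicate 3. The share of all genes lowest on replicate 2 was not counted, so nothing is read from this. The auxin response factors, which Aux/IAA proteins repress, did not pass the test: Contig15386 had a log2 ratio of 0.35 ± 0.27 and Contig2336, a match to factor 5 of Arabidopsis, one of -0.52 ± 0.40 (limma, adjusted p = 0.206 and 0.121). Contig2336 passed with a dye term and without replicate 3.

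GH3 proteins include enzymes that join auxin to amino acids, which lowers free auxin. The GH3 match WTOV_01-01-03R_H10_InvR_22Jan04_066.ab1 rose 5.42-fold in 10 dpa fiber, with log2 ratios of 2.98, 1.73 and 2.61 and a mean of 2.44 ± 0.64 (SD over 3 arrays; limma, adjusted p = 0.00254). Replicate 2 was its lowest array, as for the Aux/IAA genes and response factors above and for Contig16273 and TMIRS_093_B02.F (-1.42 and -1.65). Contig3986 was also lowest there, at 2.44. Other genes of the list, such as Contig1620 (0.58 on replicate 3), were lowest on another array. Contig16273 fell 2.24-fold (limma, adjusted p = 0.00749), but its match to a GH3 protein is weak. Contig1620, described only as an auxin efflux carrier family protein, rose 2.26-fold (limma, adjusted p = 0.0162).

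Of the 5 other genes described as induced, regulated or repressed by auxin, 2 rose and 3 fell. Of all genes, 8.03% rose and 5.61% fell. The study listed all 5 for a change between the fiber stages, so their calls are not independent evidence. Contig6403, a match to a strawberry protein whose mRNA is lowered by auxin, rose 5.35-fold, and its arrays ran from 1.53 on replicate 1 to 3.41 on replicate 3 (mean log2 ratio 2.42 ± 0.95, SD over 3 arrays; limma, adjusted p = 0.00722). The auxin-responsive family match Contig17253 rose 3.59-fold with closer arrays, at 1.64, 2.01 and 1.89 (limma, adjusted p = 0.00112). Contig13008, described like Contig9297 as auxin-induced, went the other way and fell 2.48-fold, at -1.01, -1.06 and -1.87 (limma, adjusted p = 0.00978). TMIRS_093_B02.F, which matches an auxin-induced protein of pea, fell 2.11-fold (limma, adjusted p = 0.0193), and Contig9298 fell 2.20-fold (limma, adjusted p = 0.00403). Both genes described as auxin-independent growth promoters, a name taken from a tobacco gene, rose, Contig16502 by 2.34-fold and Contig2131 by 1.95-fold (limma, adjusted p = 0.00602 and 0.0223).

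**Figure D4:**
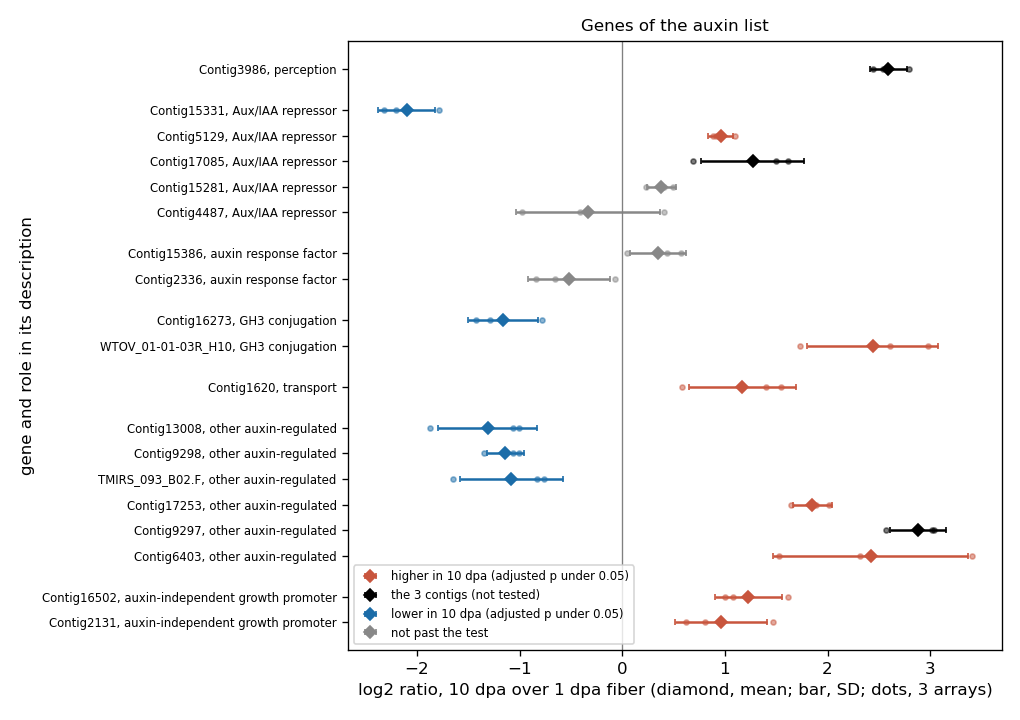
Log2 ratio of 10 dpa over 1 dpa fiber (horizontal axis) of the 19 genes of the auxin list, grouped by role (vertical axis), with diamonds at the mean, bars of 1 SD and dots for the 3 arrays. Roles were assigned from the wording of the descriptions. The role of perception printed for Contig3986 is not known, since its description does not say which auxin-binding protein is meant. The 3 contigs are black and were not tested, 7 genes in red rose, 5 in blue fell and 4 in grey did not pass the test.

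The other 5 of the 16 genes were listed for the comparison of 1 dpa fiber with ovules and not for that of the fiber stages. Both comparisons draw on 1 dpa fiber. Of these 5 genes, Contig5129 rose and 0 fell by the adjusted p from limma. At an unadjusted p under 0.05 from limma, 2 were higher and 1 was lower, where 14.3% of all genes were higher and 10.6% lower. Of the 11 genes listed for the fiber stages, 6 rose and 5 fell, where 8.03% of all genes rose and 5.61% fell. The study listed these 11 for a change in this same contrast, so their calls are not independent evidence. All 12 calls among the 16 genes ended when the arrays were scaled to the same spread and with an F-test for each gene alone, as did all calls over the whole array. Median centring in place of loess ended the calls of TMIRS_093_B02.F and Contig2131. Median centring combined with plain background subtraction ended those 2 and that of Contig13008, and leaving out the array as block ended those of Contig13008 and Contig5129.

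Some described genes had almost the same ratios as the contigs over the 3 arrays. Likeness was measured as the root mean square difference of log2 ratios over the arrays, and the ratios of only 3 arrays make up each pattern. The candidates were 797 genes of the study's additional file with a match that was not weak. The study drew that file up mainly from genes that changed, so the candidates are not a sample of all genes. Nearest to Contig3986 were Contig3467, described only as a putative protein, at 0.12, a lipid transfer family match (TMIRS_107_G05.F) at 0.13 and Contig3327 at 0.20. Nearest to Contig9297 were a LIM transcription factor match (Contig15981) at 0.07, with ratios of 2.64, 3.05 and 2.94, a family II lipase match at 0.11 and an acid phosphatase match (Contig88) at 0.13. Nearest to Contig17085 was a match to a plasma membrane intrinsic protein, of a family of water channels (Contig5285), at 0.09. Its ratios were 1.49, 0.77 and 1.42. Contig16007 followed at 0.11 and Contig8502, of unknown function, at 0.16.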

How the data were processed

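Custom Agilent arrays were read for 3 hybridizations of 1 dpa and 10 dpa fiber, and the ovule hybridizations are left out. The authors' scanner files give, per channel and spot, an uncorrected mean intensity with the intensity of the surrounding background, and a flag (other) for green signals well above background. A deposited table of log2 ratios of red over green has the same sorted values as the background-subtracted scanner signals. Its identifiers match no probe, so it gave no gene values.

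Intensities were corrected with normexp in limma 3.58.1 (offset 50, R 4.3.3) and normalized by loess within arrays, with 2256 control spots at weight 0. Spots were aligned by spot number and averaged into 40372 probes and 11143 genes. Names sharing a design number were joined. Levels per stage used Aquantile normalization between arrays. The genes other than the 3 contigs were tested against 0 with lmFit and eBayes, fitted over all genes. The methods' ANOVA needs the ovule arrays. The procedure was tested on simulated data. Alternatives were no background correction, plain subtraction, median centring, scaling, a dim-probe filter, median of probes, a dye term, channels without the array as block, an F-test per gene and leaving out each replicate. The 3 contigs, the auxin list and the alternatives were chosen with earlier results of these data known. Named are the contigs, the auxin genes and, for each contig, the 3 genes of most similar ratios. The similar genes were taken from those of the study's additional file with an expect value of 1e-05 or lower. A match above that is called weak. The number of arrays limits precision.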

Additional observations from a re-analysis of the deposited data

How the results depend on the processing

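Over the alternatives the log2 ratio stayed between 2.49 and 2.97 for Contig3986, between 2.74 and 3.21 for Contig9297 and between 1.09 and 1.58 for Contig17085, and none changed sign. Leaving out each replicate gave 2.49 to 2.66, 2.80 to 3.03 and 1.09 to 1.55 in that order. Ratios moved by more than 1 SD with plain background subtraction and median centring (2.97 for Contig3986, 3.21 for Contig9297), with median centring (2.79 for Contig3986) and with scaling between arrays (2.81 and 3.16). Of the 16 other auxin genes, 7 rose and 5 fell. With median centring 6 rose and 4 fell, and with median centring and plain subtraction together 6 and 3. With channels fitted without the array block 6 rose and 4 fell, and with a dye term 7 and 6. Scaling left 0 higher and 0 lower calls in limma (8 and 5 when p under 0.05 was not adjusted). The F-test per gene gave 0 and 0 (6 and 4 unadjusted). Without each replicate 7 rose and 5 to 6 fell. Over all genes, 895 higher and 625 lower became 458 and 115 with plain subtraction and median centring together, 547 and 401 with channels fitted without the array block, 512 and 191 after median centring alone, and 0 and 0 with scaling and with the F-test (2697 and 1811 genes at an unadjusted p under 0.05). Without each replicate 803 to 979 were higher and 447 to 1212 lower, the last without replicate 1. The share of higher among all calls was 58.9%, 72.8% with median centring, 79.9% with median centring and plain subtraction together and 44.7% without replicate 1. The stages are paired within each array in every fit but that without the array block. The cause of these shifts was not tested.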
